A study of Mus musculus with 12 samples.

Results

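The comparison described here set leukaemia cells that carry the PAX5 P80R mutant against normal B-cell precursors whose Pax5 is intact, gene by gene over the whole expression table. It used 8 of the 12 RNA-seq libraries of the series, chosen by their labels. For P80R B-ALL, cells of B-cell acute lymphoblastic leukaemia (B-ALL) were sorted by their GFP from 4 mice, the primary recipients numbered 1300, 1301, 1302 and 1308. The Pax5 WT group held 4 libraries of pro-B and pre-BI cells sorted from Pax5+/+ fetal liver. The remaining 4 libraries, from CLP and pre-pro-B cells of Pax5-/- fetal liver, were set aside. How the mutant was delivered, which Pax5 alleles the leukaemia cells had kept, the age and strain of the recipients and whether a fetal liver library held 1 embryo or a pool are not stated in these sources. Genotype, malignancy and the source and stage of the cells changed together between the groups and cannot be told apart. Every value below is a read count divided by the authors by 1 factor per library, here called a normalised read count, and leukaemia values are always listed in the order of recipients 1300, 1301, 1302 and 1308.

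Pax5 is the transcription factor that commits lymphoid progenitors to the B lineage. It switches on genes for the pre-B-cell receptor, its signalling proteins and surface antigens, and it holds down genes of other blood lineages. Ebf1 and the E proteins encoded by Tcf3 and Tcf12 act with it, and Id proteins inhibit the E proteins. P80R exchanges an amino acid in the paired domain, the part of PAX5 that contacts DNA, and recurs in human B-ALL. Pro-B and pre-BI cells divide rapidly, rearrange their immunoglobulin heavy chain genes with the RAG enzymes and display the surrogate light chain made from Igll1 and the Vpreb genes.

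The libraries held 24914250 to 29386256 reads in P80R B-ALL and 33191950 to 39465256 in Pax5 WT, so every leukaemia library was shallower (exact permutation test over samples, two-sided p = 0.0286, the smallest that 4 against 4 allow). More genes had a read in the leukaemias all the same, 13356 to 14110 against 12631 to 12809 (the same exact permutation test, p = 0.0286). Rank correlations between libraries lay between 0.972 and 0.976 in Pax5 WT and between 0.943 and 0.960 in P80R B-ALL. Recipients 1300 and 1308 stood apart from 1301 and 1302 in globin and granulocyte transcripts, as described below, and the counts of called genes without these 2 mice are given with the overall counts. The 13 mitochondrially encoded genes were at 0 throughout. The pre-B-cell markers Cd79a, Vpreb1 and Igll1 were at 7485 or more in all 8 libraries.

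Of the 11615 genes that reached 10 normalised reads in at least 4 of the 8 libraries, 4716 passed an adjusted p of 0.05 (limma on log2 of the value plus 1, Benjamini-Hochberg adjusted over all tested genes), which is 40.6%. In P80R B-ALL 2416 genes were higher (20.8%) and 2300 lower (19.8%). In 2474 genes (21.3%) all leukaemia values lay above all Pax5 WT values, and in 2349 (20.2%) all lay below. The higher genes had moved further: 1055 of them differed by at least 2 on the log2 scale and 608 by at least 4, against 403 and 171 of the lower genes. The median absolute log2 difference was 1.58 in the higher and 0.94 in the lower genes, and the median log2 difference over all tested genes was -0.03. Among the tested genes, 489 stayed under 10 in every Pax5 WT library and so could pass the filter only through the leukaemias. Of these, 487 were called higher. In the other direction 81 stayed under 10 in every leukaemia, and 79 of them were called lower. Genes of both kinds were bound to differ, and their part in the larger differences of the higher genes was not tested. Without recipients 1300 and 1308 the counts were 2626 higher and 2553 lower. For the gene lists below, where omitting 1 library, or both recipients 1300 and 1308, moved a count by over 1.5 times and by at least 2 genes, the new count is given. Over all tested genes, leaving out WT 1, WT 2, WT 3 or WT 4 gave 1886, 1881, 1841 and 2105 higher genes. Lower genes were then 1576, 1552, 1544 and 1937. List counts without a Pax5 WT library thus stand beside fewer calls over the whole table. Where leaving out 1 library moved a named gene across the threshold, its adjusted p without that library is given. These p-values measure the spread between the sampled libraries, and nothing in the labels says that the fetal liver libraries came from separate animals.

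**Figure D1:**
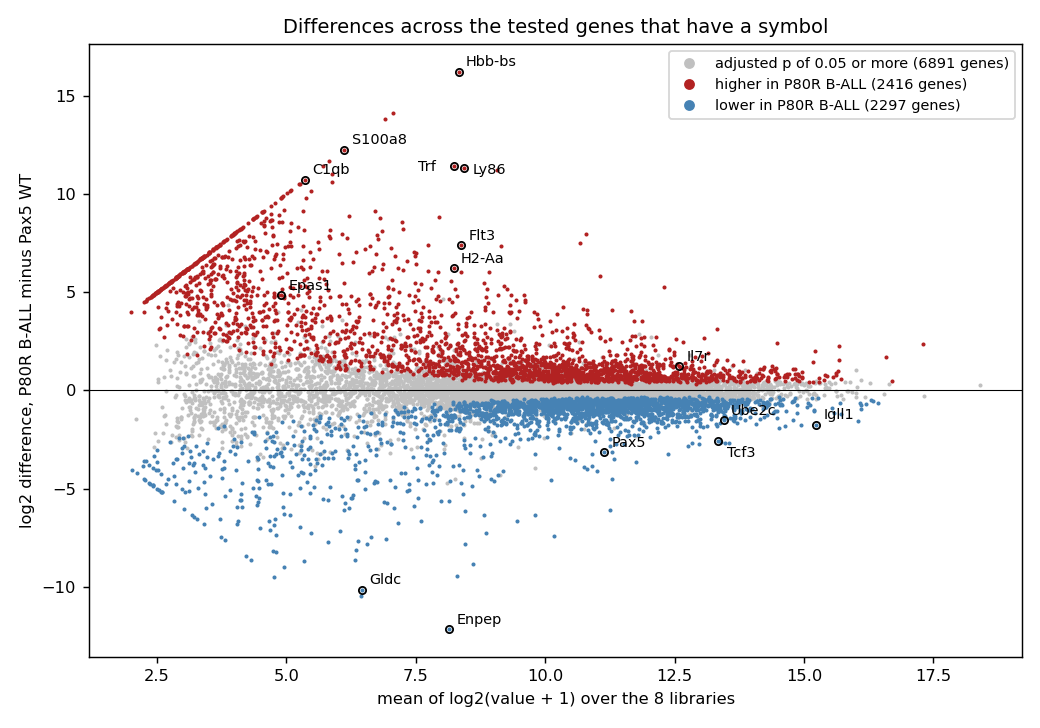
Mean log2 of the normalised read count plus 1 (x axis, mean of the 8 libraries) against the log2 difference of P80R B-ALL from Pax5 WT (y axis), 1 point per tested gene that has a symbol, red where higher and blue where lower at an adjusted p of 0.05. The higher genes, such as Hbb-bs and S100a8 (both near or at 0 in Pax5 WT), reach further from 0 than the lower genes, of which Enpep lies lowest.

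The leukaemias also differed from one another. Over the tested genes the spread of log2 values (standard deviation, median gene) was 0.45 in the 4 leukaemias and 0.16 in the 4 Pax5 WT libraries, and 91.1% of the tested genes had the larger standard deviation in P80R B-ALL. A range of at least 5 on the log2 scale was found over the leukaemias in 532 tested genes and over the Pax5 WT libraries in 1. The highest of the 4 leukaemias was recipient 1308 in 266 of these 532 genes, recipient 1300 in 106, recipient 1301 in 92 and recipient 1302 in 68. Such a gene could still pass the test, as 158 of the 532 did.

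The largest increases mixed transcripts of red cells, granulocytes and macrophages with others that were even across mice. Ly86, which encodes the MD-1 partner of a Toll-like receptor homologue on B cells, was at 13108, 16829.8, 14399 and 28249 in the leukaemias, against 10.4, 3.00, 9.89 and 3.44 in the reference (log2 difference 11.30 ± 0.41 SE, adjusted p = 1.25e-06). Trf, the iron carrier transferrin, was at 20845, 22910.2, 12112 and 10927 against 1.89, 6.00, 5.93 and 6.88 (log2 difference 11.43 ± 0.39 SE, adjusted p = 1.18e-06). Gm525, a gene model, was at 23124, 45549.7, 13217 and 35408 against 7.56, 5.00, 20.8 and 12.0 (log2 difference 11.24 ± 0.47 SE, adjusted p = 1.7e-06). All 3 were high in every leukaemia and at or under 20.8 in every Pax5 WT library. Slc40a1, which encodes the iron exporter ferroportin of macrophages, was at 1580.4, 2627, 1492 and 8933 and had no read in Pax5 WT, at least 1286-fold higher when the empty group is set to a floor of 3 reads per library. Cxcl12, the chemokine that holds B precursors in the marrow niche, was at 1796, 2316, 409 and 17578 against 0, 4.00, 0 and 0 (log2 difference 10.61 ± 1.05 SE, adjusted p = 0.000107), with recipient 1308 the highest. Fabp4, a fatty acid carrier of fat cells, macrophages and capillaries, was at 933, 939, 506 and 3939.9 and at 0 in Pax5 WT, at least 555-fold higher. Levels near or at 0 in the reference group make the size of these folds depend on the floor or on the added 1. In bulk RNA, fewer cells of a type and less RNA per cell cannot be told apart, nor can more of either.

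Enpep led the decreases. It encodes aminopeptidase A, the BP-1 antigen of early B precursors, and stood at 0, 8.61, 0 and 31.8 in the leukaemias, against 19318, 19611, 19071 and 18275 in the reference (log2 difference -12.14 ± 1.04 SE, adjusted p = 7.39e-05), so that 2 leukaemias had no read of it. Vat1l was at 0, 2.46, 7.44 and 0 against 3511, 3382, 3384 and 2844 (log2 difference -10.46 ± 0.67 SE, adjusted p = 1.24e-05), and Gldc, the glycine decarboxylase of the mitochondrial glycine cleavage system, at 2.63, 0, 2.48 and 2.77 against 3206, 3193, 2996 and 2592 (log2 difference -10.15 ± 0.48 SE, adjusted p = 3.64e-06). Egfl6, a secreted protein with EGF-like repeats, had no read in any leukaemia and 680.4, 783, 769 and 675 in Pax5 WT, at least 188-fold lower. Crhbp, which encodes the binding protein of corticotropin-releasing hormone, was at 0, 17.2, 218 and 4.15 against 7976, 8384, 7986 and 9045 (log2 difference -9.44 ± 1.36 SE, adjusted p = 0.000868), highest among the leukaemias in recipient 1302. Alpl, tissue-nonspecific alkaline phosphatase, was at 19.7, 6.15, 2.48 and 202 against 8571, 8435, 8783 and 7635 (log2 difference -8.86 ± 1.07 SE, adjusted p = 0.000366). No leukaemia value of these 6 genes came near the lowest Pax5 WT value.

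B-lineage transcription factors were lower as a group, without being lost. Of 21 tested members 12 fell (57.1%, beside 19.8% of all tested genes), 1 rose (4.76%, beside 20.8%) and 8 did not pass. The median log2 difference was -1.28. Pax5 itself stood at 847, 1146, 1316 and 255 in the leukaemias, against 7315, 6359, 7067 and 6194 in the reference (log2 difference -3.15 ± 0.45 SE, adjusted p = 0.000703). All 4 leukaemias were below the reference, recipient 1308 the furthest, and gene-level counts do not say which reads came from the mutant or whether an introduced sequence was counted at this gene. Ebf1, which acts upstream of and together with Pax5, was at 6436, 7632, 11594 and 2333 against 18651, 17954, 20222 and 18446 (log2 difference -1.64 ± 0.41 SE, adjusted p = 0.0115). Tcf3, which encodes the E proteins E12 and E47, fell the most evenly of the 3, from 25386, 26603, 25664 and 23515 in Pax5 WT to 3865, 4110.2, 5409 and 3847 (log2 difference -2.57 ± 0.14 SE, adjusted p = 8.4e-06), and its relative Tcf12 was at 2234, 2674, 2649.8 and 2765 against 4686 to 5722 (log2 difference -1.05 ± 0.13 SE, adjusted p = 0.000315). Id3, an inhibitor of E proteins, fell as well, with 1036, 453, 259 and 1255 against 5424 to 6864 (log2 difference -3.23 ± 0.44 SE, adjusted p = 0.000595). Irf8, a factor of B, dendritic and monocytic cells, was lower in 3 leukaemias and far higher in recipient 1308, at 2735, 3599.5, 2538 and 106755 against 7590.5 to 8632 (adjusted p = 0.914, and adjusted p = 0.000162 without recipient 1308). Myb, needed for progenitor growth, was at 23900.1, 12658, 12338 and 6039 against 16420.5 to 17676 (adjusted p = 0.278, and adjusted p = 0.0351 without recipient 1300). Mef2c was at 14634, 8697, 14383 and 13843 against 7635 to 9802 (adjusted p = 0.0604, and adjusted p = 0.00377 without recipient 1301).

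Genes of the pre-B-cell receptor and its proximal signalling were mostly lower too (median log2 difference -0.998). Of 17 tested members 9 fell (52.9%, beside 19.8% of all tested genes), 1 rose (5.88%, beside 20.8%) and 7 did not pass the threshold. Of 13 list genes with a RefSeq promoter entry (GRCm38.p6), 9 (69.2%) held the letters CAGGTG, the E-box that E proteins bind, on either strand within 250 bases before the start, against 19.4% of 27025 genes and 17.6% of the tested genes with an entry. They were in 4 of the 7 matched genes that fell and in 5 of the 6 that did not. On the minus strand the motif reads CACCTG, and it neither holds nor is held by the other motifs given below. The 160 bases before the start are shown for 3 genes that fell, with the match in capitals, to show where the letters lie. Cd79a lies at chr7:24897337-24897496 (plus strand) with the match starting 154 bases before the start, Syk at chr13:52596722-52596881 (plus strand) with the match at 144 bases and Igll1, chosen after its values were seen, at chr16:16863986-16864145 (minus strand) with the match at 8 bases, on the opposite strand.
Cd79a: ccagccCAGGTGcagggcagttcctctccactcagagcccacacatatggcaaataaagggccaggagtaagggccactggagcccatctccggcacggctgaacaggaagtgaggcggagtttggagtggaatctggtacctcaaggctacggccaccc
Syk: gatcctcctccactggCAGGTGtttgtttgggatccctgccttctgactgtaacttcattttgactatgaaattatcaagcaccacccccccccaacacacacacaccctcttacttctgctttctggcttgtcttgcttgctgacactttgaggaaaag
Igll1: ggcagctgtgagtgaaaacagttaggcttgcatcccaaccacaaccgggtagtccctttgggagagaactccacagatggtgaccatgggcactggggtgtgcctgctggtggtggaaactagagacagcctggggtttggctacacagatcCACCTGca
A match of letters is a description and not evidence that a protein was bound there.

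Cd79a, the Ig-alpha signalling chain, was at 14008, 7485, 19767 and 10039 in the leukaemias, against 43011, 44539, 44642 and 50939 in the reference (log2 difference -1.93 ± 0.26 SE, adjusted p = 0.000514). All 4 leukaemias were below the reference, recipient 1301 the furthest. Syk, the kinase that the receptor activates, was at 3213, 3432, 5109.8 and 4284 against 6833 to 10485 (log2 difference -1.19 ± 0.19 SE, adjusted p = 0.00125), and Prkcb, the protein kinase C isoform of B-cell signalling, at 3145, 3677, 6472 and 6280.0 against 12277 to 13856 (log2 difference -1.52 ± 0.24 SE, adjusted p = 0.00103). Igll1, the lambda5 chain of the surrogate light chain, was at 10812, 42896, 15583 and 27074 against 64599.6 to 81716 (log2 difference -1.74 ± 0.37 SE, adjusted p = 0.00546), lowest in recipient 1300. Its partner genes did not pass: Vpreb1 was at 17247, 37185, 21052 and 21904 against 31837 to 38049.8 (adjusted p = 0.0666, and adjusted p = 0.00213 without recipient 1301) and Vpreb2 at 2829, 56213, 27177 and 4668 against 12155 to 15525 (adjusted p = 0.882). Vpreb1 and Vpreb2 are near-identical copies, so the division of reads between them is uncertain. Plcg2, the phospholipase downstream of Syk, was at 8015, 8942, 16520.4 and 8266 against 10819 to 14597 (adjusted p = 0.196, and adjusted p = 0.00644 without recipient 1302).

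Among surface antigens that grade B precursors, 4 of 19 tested members were higher and 5 lower. That was 21.1% up and 26.3% down, beside 20.8% and 19.8% of all tested genes. For the surface genes this became 7 higher without recipient 1301, 2 lower without WT 1, WT 2 or WT 3 and 3 lower without WT 4, recipient 1302 or recipient 1308. Il2ra, the CD25 chain that normally appears at the later pre-BII stage, rose to 1863, 2947, 3725 and 1965 from 224, 238, 197 and 139 (log2 difference 3.68 ± 0.27 SE, adjusted p = 2.38e-05). Bst1, the BP-3 antigen, fell together with Enpep, to 28.9, 311, 119 and 334 from 2309.7, 2493, 2302 and 2642 (log2 difference -4.13 ± 0.68 SE, adjusted p = 0.00156). Ptprc, which encodes CD45 and its B220 form, rose to 9817, 9607, 12371 and 17309.5 from 4831 to 5609.7 (log2 difference 1.15 ± 0.19 SE, adjusted p = 0.00144). Cd37 was at 14971, 8479, 20871 and 15043 against 10388 to 11649 (adjusted p = 0.236, and adjusted p = 0.0108 without recipient 1301), and Spn, the CD43 antigen of pro-B cells, at 2957, 2349, 2580.3 and 4105 against 2837 to 3327 (adjusted p = 0.804). Cd9 was above every Pax5 WT value in 3 leukaemias and below them in recipient 1302, at 7039, 2892, 206 and 7956 against 406 to 563 (adjusted p = 0.099, and adjusted p = 0.000207 without recipient 1302).

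In the recombination machinery 1 of 11 tested genes rose and 2 fell. That was 9.09% up and 18.2% down, beside 20.8% and 19.8% of all tested genes. Dntt, the terminal transferase that adds untemplated bases at V(D)J joints and is low in fetal B precursors, was at 115932, 45518, 127 and 12925 against 1379, 1425, 1225 and 1346. Recipients 1300, 1301 and 1308 exceeded all Pax5 WT values, and recipient 1302 was below them, so the gene did not pass (adjusted p = 0.236, and adjusted p = 0.000575 without recipient 1302). Rag1 was at 1855, 4323, 3857 and 911 against 2657 to 3977 (adjusted p = 0.313) and Rag2 at 1639.5, 3273, 5589.9 and 530.0 against 3655 to 4065 (adjusted p = 0.233, and adjusted p = 0.0472 without recipient 1302), both lowest in recipient 1308. The end-joining ligase Lig4 fell to 431, 604, 452 and 404 from 962 to 1171 (log2 difference -1.14 ± 0.18 SE, adjusted p = 0.00101), and Hmgb1, a RAG cofactor, to 20227, 27136, 20927 and 13688 from 40761 to 49098 (log2 difference -1.15 ± 0.20 SE, adjusted p = 0.00165). Xrcc6, which encodes Ku70, rose to 11009, 19672, 15651 and 7932 from 6444 to 6840.1 (log2 difference 0.93 ± 0.25 SE, adjusted p = 0.0152).

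Genes reported to be activated by Pax5 fell in 13 of 21 tested members (61.9%, beside 19.8% of all tested genes) and rose in 0 (beside 20.8%). The median log2 difference was -1.99. Cplx2, a complexin of vesicle fusion, was at 27.6, 82.5, 127 and 5.54 against 5459, 5762, 6007 and 5534 (log2 difference -7.24 ± 0.80 SE, adjusted p = 0.000223), and Plekha2 at 4253, 5153, 6240.0 and 4506 against 10814 to 12947 (log2 difference -1.28 ± 0.15 SE, adjusted p = 0.000232). Cd72, an inhibitory B-cell receptor, was at 3384, 81.2, 4.96 and 1633 against 3281 to 3926. It lay within the reference range in recipient 1300, was lower in the others and did not pass (adjusted p = 0.0998, and adjusted p = 0.0269 without recipient 1300). Spib, an Ets factor of B and plasmacytoid dendritic cells, was below the reference in 3 leukaemias and above it in recipient 1308, at 342, 2254, 4116 and 14513 against 6981 to 8194 (adjusted p = 0.205, and adjusted p = 0.0324 without recipient 1308). Cnn3 was at 27868, 7028, 13959.9 and 4875 against 15502 to 16427 (adjusted p = 0.359, and adjusted p = 0.0315 without recipient 1300).

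Genes reported to be repressed by Pax5 rose in 12 of 16 tested members (75%, beside 20.8% of all tested genes) and fell in 1 (6.25%, beside 19.8%). The median log2 difference was 2.67, and 1 tested member passed the filter only through the leukaemias. Flt3, the cytokine receptor of multipotent and lymphoid progenitors, was at 2374, 1848, 10056 and 7957 in the leukaemias, against 34.0, 24.0, 15.8 and 28.4 in the reference (log2 difference 7.40 ± 0.55 SE, adjusted p = 2.5e-05). The 4 leukaemias were all far above the reference, with 1302 and 1308 the highest. Grap2, an adaptor of T-cell and mast-cell receptors, was at 734, 657, 562 and 891 against 102, 105, 108 and 95.5 (log2 difference 2.76 ± 0.22 SE, adjusted p = 3.87e-05), and Emb, the adhesion protein embigin, at 4855, 11731, 12876 and 7059 against 1274, 1218, 1132 and 1389 (log2 difference 2.76 ± 0.29 SE, adjusted p = 0.000124). Fcer1g, the Fc receptor gamma chain of myeloid cells, was at 19463, 4023, 1277 and 26853 against 28.0 to 81.7 (log2 difference 7.35 ± 0.90 SE, adjusted p = 0.000387). Its order over the leukaemias, highest in 1308 and 1300, was that of the granulocyte markers described below, whose part in the result was not tested. Notch1, the receptor of T-lineage fate, was at 774, 1563, 2036 and 844 against 345 to 776 (adjusted p = 0.0773, and adjusted p = 0.0475 without recipient 1300).

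**Figure D2:**
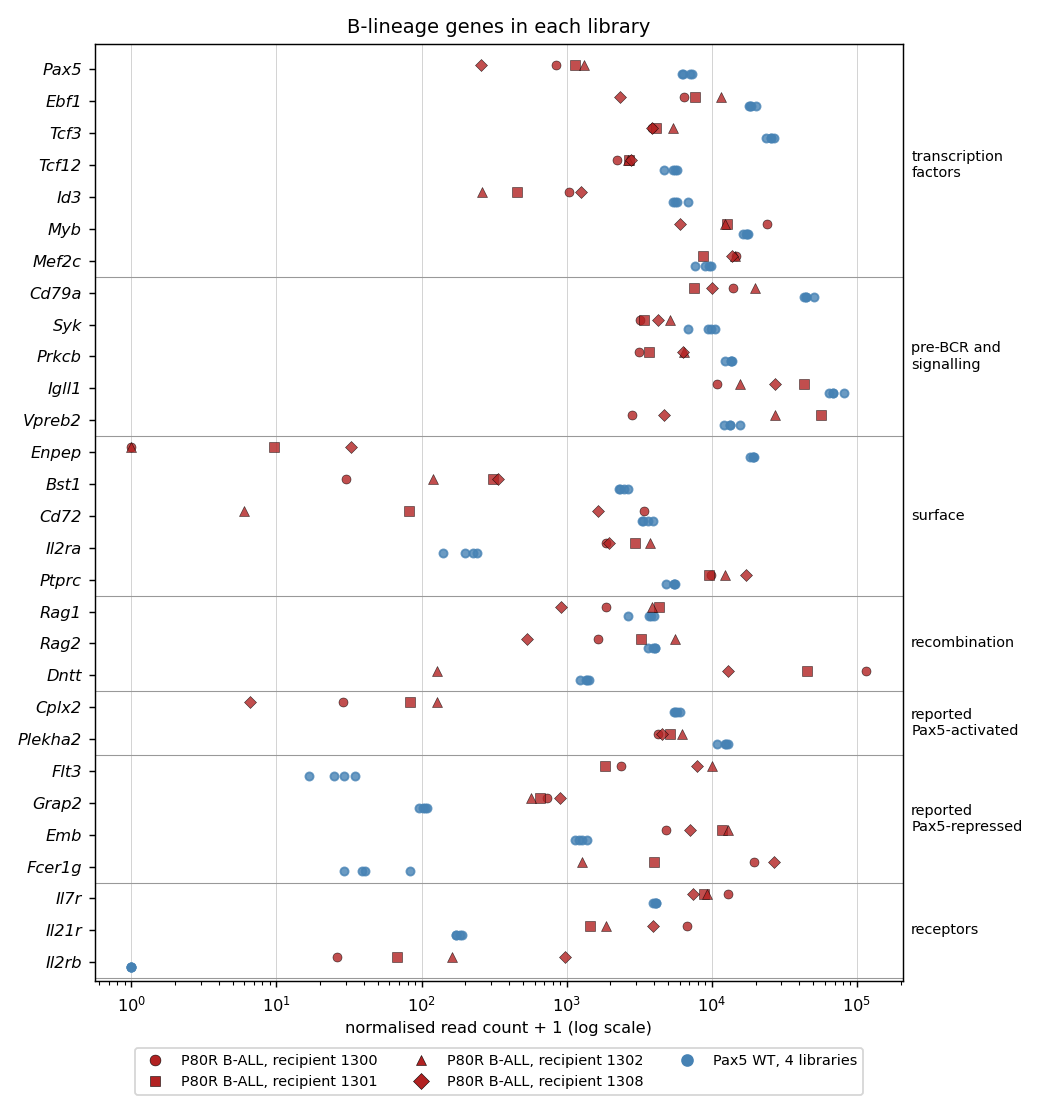
Normalised read count plus 1 (x axis, log scale) of B-lineage, recombination, Pax5 target and cytokine receptor genes (rows), 1 point per library, with a red symbol for each leukaemia and blue circles for the 4 Pax5 WT libraries. Pax5, Tcf3, Cd79a and Enpep lie to the left of the reference in every leukaemia, Flt3 and Il2ra to the right of it, and Vpreb2 on both sides.

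Stem and progenitor regulators did not move together: 3 of 13 tested genes were higher, 2 lower and 8 not past the threshold. That was 23.1% up and 15.4% down, beside 20.8% and 19.8% of all tested genes. For the stem and progenitor genes this became 1 higher without WT 1, WT 2, WT 3, WT 4 or recipient 1302, 5 higher without recipient 1301 and 5 lower without both recipients 1300 and 1308. Lmo2, a transcriptional adaptor of blood stem cells, rose to 16771, 4374, 5141 and 9614 from 1219.5 to 1451 (log2 difference 2.57 ± 0.37 SE, adjusted p = 0.000747). Mycn fell to 0, 40.6, 113 and 2.77 from 456 to 574 (log2 difference -5.49 ± 1.30 SE, adjusted p = 0.00925). Erg, an Ets factor, was lower at 360.2, 517, 631 and 112 against 798 to 1179 (log2 difference -1.50 ± 0.48 SE, adjusted p = 0.0312; adjusted p between 0.0525 and 0.0827 with WT 1, WT 2, WT 3, WT 4 and recipient 1300 left out in turn). Ly6a, the Sca-1 antigen, was higher in 3 leukaemias and lower in recipient 1300, at 101, 7373, 7374 and 36198 against 631 to 751 (adjusted p = 0.219, and adjusted p = 0.000621 without recipient 1300). Kit, the stem cell factor receptor of early B precursors, was also low in recipient 1300, at 98.6, 4825, 4554 and 1402 against 3656 to 5695 (adjusted p = 0.189). Sox4 was at 17004, 8385, 9469 and 6315 against 11768 to 13091 (adjusted p = 0.312, and adjusted p = 0.016 without recipient 1300).

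Of the fetal program, 6 of 11 listed genes were tested, with 1 higher (16.7%) and 2 lower (33.3%), beside 20.8% and 19.8% of all tested genes. Lin28b, the RNA-binding protein that marks fetal lymphopoiesis, was at 0, 0, 0 and 13.8 in the leukaemias, against 316, 276, 279.8 and 172 in the fetal liver cells (log2 difference -7.02 ± 0.90 SE, adjusted p = 0.000366), so 3 leukaemias had no read of it. Igf2bp3, a target of the Lin28b pathway, was lower in 3 leukaemias and just above the reference range in recipient 1302, at 1868, 1626, 4117 and 1796 against 3838 to 4104 (log2 difference -0.87 ± 0.27 SE, adjusted p = 0.0278; adjusted p between 0.0562 and 0.0692 with WT 1, WT 2, WT 3, WT 4, recipient 1300, recipient 1301 and recipient 1308 left out in turn). Igf2bp2 was higher at 72.3, 169, 128 and 60.9 against 22.7 to 47.0 (log2 difference 1.60 ± 0.48 SE, adjusted p = 0.0247; adjusted p between 0.0537 and 0.077 with WT 1, WT 3 and recipient 1301 left out in turn). Arid3a was at 259, 709, 1496 and 1562 against 1026 to 1819 (adjusted p = 0.201).

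Cytokine receptor genes include Il7r, the interleukin-7 receptor alpha chain on which mouse B precursors depend. In the list of interleukin receptors, JAK kinases and STAT5 6 of 24 tested members rose and 1 fell, and 1 passed the filter only through the leukaemias. That was 25% up and 4.17% down, beside 20.8% and 19.8% of all tested genes. For the interleukin receptor genes this became 3 lower without recipient 1302, recipient 1308 or both recipients 1300 and 1308. Il7r was at 12989, 8843, 9211 and 7427 against 3925, 4034, 4115 and 4105 (log2 difference 1.22 ± 0.17 SE, adjusted p = 0.000566), and Il21r, the interleukin-21 receptor, at 6753, 1439, 1876 and 3908 against 170.3 to 189 (log2 difference 4.01 ± 0.43 SE, adjusted p = 0.00014). Il2rb, the beta chain shared by receptors of interleukin-2 and interleukin-15, was at 25.0, 66.5, 161 and 978 and had no read in Pax5 WT, at least 108-fold higher. Socs1, which dampens JAK signalling and is induced by cytokines, was at 204, 505, 770.4 and 512 against 77.5 to 123 (log2 difference 2.19 ± 0.40 SE, adjusted p = 0.00246). Jak1 was at 10328, 6758, 13173 and 9726 against 6866 to 8077 (adjusted p = 0.14, and adjusted p = 0.0137 without recipient 1301), and Il2rg at 3009.5, 2106, 3512 and 3778 against 2462 to 2862 (adjusted p = 0.419, and adjusted p = 0.0474 without recipient 1301).

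RAS and MAPK genes showed 3 decreases and 0 increases among 16 tested members. That was 0% up and 18.8% down, beside 20.8% and 19.8% of all tested genes. For the RAS and MAPK genes this became 3 higher without recipient 1301 and 1 lower without WT 1, WT 2 or WT 3. Nras was lower at 4547, 4518, 5139.6 and 4911 against 5667 to 6477 (log2 difference -0.38 ± 0.12 SE, adjusted p = 0.0257; adjusted p between 0.0833 and 0.0868 with WT 1, WT 2 and WT 3 left out in turn), and Braf at 539, 463, 707 and 544 against 673 to 920.5 (log2 difference -0.56 ± 0.19 SE, adjusted p = 0.0386; adjusted p between 0.0508 and 0.118 with WT 1, WT 2, WT 3, recipient 1300, recipient 1301 and recipient 1308 left out in turn). Dusp6, the ERK phosphatase that ERK itself induces, spanned 21303, 853, 8026 and 8134 against 2306 to 2469, low in recipient 1301 and highest in 1300 (adjusted p = 0.234, and adjusted p = 0.00157 without recipient 1301). Among immediate-early and heat-shock genes 5 of 18 tested members fell (27.8%) and 1 rose (5.56%), beside 19.8% and 20.8% of all tested genes. For the immediate-early genes this became 3 higher without recipient 1302 and 3 lower without WT 1, WT 2, WT 3 or WT 4. Egr1 fell to 128, 82.5, 104 and 363 from 755 to 1144 (log2 difference -2.80 ± 0.42 SE, adjusted p = 0.000844), Ier2 to 1519.9, 1493, 1904 and 1878 from 2832 to 3054 (log2 difference -0.82 ± 0.14 SE, adjusted p = 0.00142) and Jund to 763, 450.4, 1218 and 2155 from 2577 to 3090.5 (log2 difference -1.55 ± 0.40 SE, adjusted p = 0.0142). Handling and time to lysis, to which such transcripts respond, are not given in the labels, and their part in the result was not tested.

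Mitotic genes fell without exception. All 28 tested genes of the G2 and mitosis list were lower in the leukaemias, beside 19.8% of all tested genes (median log2 difference -1.54). Of 25 list genes with a promoter entry, 20 (80%) held CCAAT, the box bound by the NF-Y factor and common in promoters of mitotic genes, on either strand within 250 bases before the start, against 37.5% of all genes with an entry and 40.9% of the tested ones. The 160 bases before the start follow for 3 of these genes with the matches in capitals (ATTGG where the match is on the opposite strand), to show where the shared letters lie. Ube2c lies at chr2:164769769-164769928 (plus strand) with matches starting 155, 88 and 57 bases before the start, Top2a at chr11:99024190-99024349 (minus strand) with its first 3 of 4 matches at 149, 98 and 78 bases and Ccnb1, chosen after its values were seen, at chr13:100786487-100786646 (minus strand) with matches at 99 and 67 bases.
Ube2c: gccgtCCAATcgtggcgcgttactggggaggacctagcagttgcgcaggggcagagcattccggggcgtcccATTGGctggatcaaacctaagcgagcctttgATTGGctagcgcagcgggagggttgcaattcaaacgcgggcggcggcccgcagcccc
Top2a: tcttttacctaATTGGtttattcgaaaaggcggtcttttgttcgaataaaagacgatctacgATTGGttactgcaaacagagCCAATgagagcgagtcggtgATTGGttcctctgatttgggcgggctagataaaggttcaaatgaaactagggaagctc
Ccnb1: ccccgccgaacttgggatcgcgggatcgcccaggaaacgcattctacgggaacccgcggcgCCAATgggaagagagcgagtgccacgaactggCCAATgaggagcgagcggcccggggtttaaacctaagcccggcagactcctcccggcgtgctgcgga
The letters are a description of these windows, and no binding was measured.

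Ube2c, the ubiquitin-conjugating enzyme of the anaphase-promoting complex, was at 6074, 6790.5, 6101 and 7804 in the leukaemias, against 17810.1, 18375, 18147 and 21560.2 in the reference (log2 difference -1.51 ± 0.13 SE, adjusted p = 5.72e-05). Nusap1, a spindle protein, was at 6308, 9200.0, 7654 and 7142 against 24044, 23952, 22277 and 24385 (log2 difference -1.66 ± 0.14 SE, adjusted p = 4.48e-05), and Tpx2, which activates Aurora A on the spindle, at 4023, 5486, 5537 and 4013 against 12457 to 14517 (log2 difference -1.52 ± 0.15 SE, adjusted p = 0.00011). Top2a, the topoisomerase of dividing cells, was at 13867, 17126, 21346 and 14932 against 43746 to 52232 (log2 difference -1.53 ± 0.15 SE, adjusted p = 0.000114), and Ccnb1, the mitotic cyclin B1, at 5416, 11276, 8779 and 7564 against 20912 to 22015 (log2 difference -1.42 ± 0.20 SE, adjusted p = 0.000657). The 2 groups did not overlap in any of these 5 genes, and Ccnb1 varied the most between the leukaemias, from 5416 to 11276.

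Genes of S phase and DNA replication fell in 14 of 26 tested members (53.8%, beside 19.8% of all tested genes) and rose in 0 (beside 20.8%). The median log2 difference was -0.63. Rrm2, a ribonucleotide reductase subunit, was at 10944, 18178, 11907 and 16666 against 35659.7 to 38722 (log2 difference -1.39 ± 0.18 SE, adjusted p = 0.000356), Pold1, the catalytic subunit of DNA polymerase delta, at 3341, 5920.4, 6342 and 4513 against 11311 to 12328 (log2 difference -1.28 ± 0.20 SE, adjusted p = 0.000989) and Mcm3, of the replicative helicase, at 12638, 17062, 17885 and 12206 against 25904 to 26522 (log2 difference -0.83 ± 0.15 SE, adjusted p = 0.00243). Pcna, the sliding clamp, did not pass at 14318, 25238, 15497 and 13548 against 20181 to 24290.2 (adjusted p = 0.145, and adjusted p = 0.00455 without recipient 1301). Of the cyclin D, CDK and CDK inhibitor genes 5 of 18 fell (27.8%) and 0 rose, beside 19.8% and 20.8% of all tested genes. For the cyclin and CDK genes this became 3 higher without recipient 1308 or both recipients 1300 and 1308 and 8 lower without both recipients 1300 and 1308. E2f2 fell to 1267, 737, 1155 and 1608 from 6457 to 8135 (log2 difference -2.72 ± 0.22 SE, adjusted p = 3.97e-05), and Rb1, the E2F-binding tumour suppressor, to 1106, 499.6, 960.2 and 1158 from 2492 to 2933 (log2 difference -1.58 ± 0.25 SE, adjusted p = 0.00118). Ccnd3, the D cyclin needed by pre-B cells, fell to 12617, 7438, 4418 and 14288 from 24065 to 25559 (log2 difference -1.52 ± 0.32 SE, adjusted p = 0.00532), while Ccnd2 was at 8286, 14323, 14615 and 14823 against 9812 to 10722 (adjusted p = 0.221, and adjusted p = 0.00773 without recipient 1300). Cdk4 was at 29301, 44182, 29033 and 22064 against 29085 to 34161 (adjusted p = 0.9). Myc was higher in 3 leukaemias and lower in recipient 1308, at 14105, 13594, 20282 and 4929 against 8429 to 8882 (adjusted p = 0.366, and adjusted p = 0.00307 without recipient 1308).

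Trp53, which encodes p53, fell to 6824, 7008, 9539 and 7362 from 12879 to 14328 (log2 difference -0.81 ± 0.14 SE, adjusted p = 0.00164). Among p53 and its targets 6 of 17 tested members fell (35.3%) and 2 rose (11.8%), beside 19.8% and 20.8% of all tested genes. Zmat3 fell to 93.3, 27.1, 123 and 81.6 from 297 to 392 (log2 difference -2.16 ± 0.45 SE, adjusted p = 0.00462) and Mdm4, a p53 inhibitor, to 1254, 1237, 1562 and 933 from 1698 to 2729 (log2 difference -0.86 ± 0.20 SE, adjusted p = 0.00828), whereas Sesn1 rose to 4627, 5065, 5885 and 3562 from 2563 to 2760.2 (log2 difference 0.82 ± 0.16 SE, adjusted p = 0.00354). In the BCL2 family of cell death regulators 5 of 15 tested members rose and 3 fell, 3 of them passing the filter only through the leukaemias. These shares were 33.3% up and 20% down, beside 20.8% and 19.8% of all tested genes. For the BCL2 family genes this became 5 lower without both recipients 1300 and 1308. Bcl2l1, the survival gene that encodes BCL-XL, fell to 1119, 719.9, 727 and 1889 from 5194 to 6197 (log2 difference -2.48 ± 0.29 SE, adjusted p = 0.000221). Bid, a pro-apoptotic member, rose to 3203, 2941, 3738 and 2888 from 1681 to 1866 (log2 difference 0.84 ± 0.13 SE, adjusted p = 0.00109). Bcl2a1a was at 17.1, 75.1, 67.0 and 221 and had no read in Pax5 WT, at least 33.4-fold higher. It belongs to a family of near-identical copies, so its share of reads is uncertain. Mcl1 was at 7753, 9967, 9986 and 12060.4 against 8684 to 9334 (adjusted p = 0.538), and Pmaip1, which encodes NOXA, at 671, 618, 473 and 2479 against 969 to 1172 (adjusted p = 0.589, and adjusted p = 0.00453 without recipient 1308).

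DNA methylation genes had 3 of 9 tested members lower (33.3%) and 0 higher, beside 19.8% and 20.8% of all tested genes. Dnmt1, the maintenance methyltransferase, fell to 4891, 6756, 10546 and 5693 from 14216 to 21614 (log2 difference -1.48 ± 0.24 SE, adjusted p = 0.00125), and Uhrf1, which recruits it to replicating DNA, to 10483, 21724, 19608 and 11223 from 28043 to 35079.6 (log2 difference -1.11 ± 0.24 SE, adjusted p = 0.00585). The de novo methyltransferase gene Dnmt3a was at 1653, 538, 3544 and 1299 against 1822 to 2447 (adjusted p = 0.351, and adjusted p = 0.0447 without recipient 1302) and Dnmt3b at 653, 1803, 1171 and 268 against 1033 to 1130.3 (adjusted p = 0.5), and both spanned the reference range.

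The series title names Hif2a, the oxygen-regulated factor encoded by Epas1. Epas1 was at 134, 132, 176 and 205 in the leukaemias, against 11.3, 7.00, 0 and 8.60 in the reference (log2 difference 4.85 ± 0.78 SE, adjusted p = 0.00123). Every leukaemia was above every reference library, the leukaemia values differed by less than the gap between the groups, and all were low counts. The summed endothelial and macrophage markers, given below, were also higher in every leukaemia, and their part in the Epas1 level was not tested. Hif1a, which encodes the related HIF1-alpha, was at 3749.8, 3495, 4272 and 3595 against 3959 to 4471 (adjusted p = 0.299). Of the HIF subunits and oxygen sensors 2 of 9 tested members rose and 0 fell. That was 22.2% up and 0% down, beside 20.8% and 19.8% of all tested genes. For the HIF genes this became 2 lower without recipient 1302. The second gene that rose was Vhl, which encodes the ubiquitin ligase subunit that removes HIF proteins, at 2105, 2249.6, 1244 and 4327 against 1119.5 to 1281 (log2 difference 0.92 ± 0.32 SE, adjusted p = 0.0418; adjusted p between 0.0675 and 0.096 with WT 1, WT 2, WT 3, WT 4, recipient 1300 and recipient 1301 left out in turn).

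Glycolysis genes had a median log2 difference of -0.79. They fell in 11 of 18 tested members (61.1%, beside 19.8% of all tested genes) and rose in 1 (5.56%, beside 20.8%). For the glycolysis genes this became 7 lower without WT 1, WT 2, WT 4 or recipient 1300. Pkm, which encodes pyruvate kinase, was at 10026, 24484, 26053 and 13466 against 55849.5 to 60635 (log2 difference -1.76 ± 0.29 SE, adjusted p = 0.00126), Tpi1, triosephosphate isomerase, at 8738, 11436, 11619 and 6737 against 19628 to 23115 (log2 difference -1.16 ± 0.18 SE, adjusted p = 0.00113) and Gapdh at 778, 1856, 1773 and 1180.4 against 3131 to 3824 (log2 difference -1.39 ± 0.26 SE, adjusted p = 0.00272). The exception was Slc2a3, a glucose transporter, which rose to 1712, 1243, 2422 and 2344 from 386 to 466 (log2 difference 2.08 ± 0.22 SE, adjusted p = 0.000157). Pdk1, which restrains pyruvate entry into mitochondria, was at 4481, 7214, 6282 and 2628 against 3275 to 4065 (adjusted p = 0.373, and adjusted p = 0.0226 without recipient 1308).

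Oxidative phosphorylation genes mostly did not pass, as 3 of 27 rose and 1 fell (median log2 difference 0.16). These shares were 11.1% up and 3.7% down, beside 20.8% and 19.8% of all tested genes. For the oxidative phosphorylation genes this became 9 higher without recipient 1302 and 4 lower without recipient 1301. Ndufb8, of complex I, rose to 9996, 14392, 8289 and 8568 from 4956 to 6541 (log2 difference 0.88 ± 0.19 SE, adjusted p = 0.0057), and Sdha, of complex II, fell to 11216, 13449, 15483 and 11157 from 18119 to 20021 (log2 difference -0.58 ± 0.14 SE, adjusted p = 0.00906). Cytosolic ribosomal protein genes changed by small amounts (median log2 difference 0.40). They rose in 21 of 46 tested members (45.7%, beside 20.8% of all tested genes) and fell in 1 (2.17%, beside 19.8%). For the ribosomal protein genes this became 11 higher without WT 1 or WT 2 and 12 higher without WT 3. Rps27 was at 35609.6, 36439.5, 25187 and 34925 against 12668 to 16061 (log2 difference 1.25 ± 0.16 SE, adjusted p = 0.000322) and Rpl35 at 36330.1, 38314, 26085 and 25489.5 against 14356 to 18087 (log2 difference 0.98 ± 0.17 SE, adjusted p = 0.00177), while Rpl4 was at 60518, 67864, 66125 and 49367 against 61521 to 66826 (adjusted p = 0.705).

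In iron transport and haem synthesis 3 of 15 tested genes rose and 1 fell, and 1 passed the filter only through the leukaemias. That was 20% up and 6.67% down, beside 20.8% and 19.8% of all tested genes. For the iron genes this became 5 higher without recipient 1302 and 3 lower without both recipients 1300 and 1308. Tfrc, the transferrin receptor through which dividing cells take up iron, fell to 5567, 9526, 8077 and 12099 from 19602 to 25932 (log2 difference -1.43 ± 0.22 SE, adjusted p = 0.00102). Hmox1, haem oxygenase, rose to 468, 715, 724 and 8404 from 43.0 to 66.2 (log2 difference 4.53 ± 0.80 SE, adjusted p = 0.00212), and Slc40a1 is given above. Both are also macrophage markers with their highest value in recipient 1308, where that list's summed level was highest, and its part in the result was not tested. Urod, of the haem pathway, rose to 3537, 3240.2, 2499.7 and 3307 from 1648 to 2062 (log2 difference 0.80 ± 0.15 SE, adjusted p = 0.00295). Fth1, the ferritin heavy chain, was at 54459.6, 81334, 78026 and 228592 against 42235 to 54552 (adjusted p = 0.0553, and adjusted p = 0.0217 without recipient 1300 and 0.0218 without recipient 1308).

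**Figure D3:**
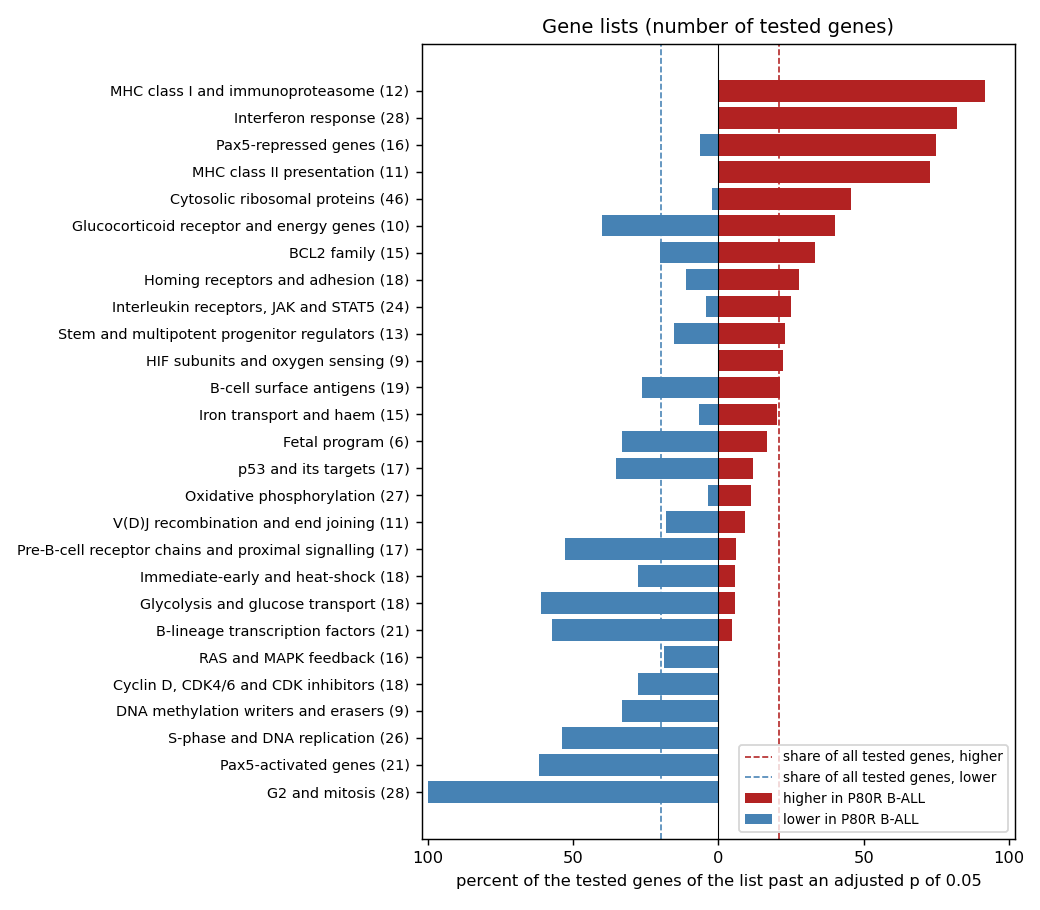
Percent of the tested members of each gene list (rows, number tested in brackets) past an adjusted p of 0.05, drawn from 0 to the right where higher (red) and to the left where lower (blue) in P80R B-ALL. Dashed lines mark the shares over all tested genes, 20.8% higher and 19.8% lower; all 28 mitotic genes are lower and 23 of 28 interferon genes higher.

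Interferon response genes were higher in the leukaemias, with a median log2 difference of 3.13. Of 28 tested members 23 rose (82.1%, beside 20.8% of all tested genes) and 0 fell (beside 19.8%). Among the 28, 2 passed the filter only through the leukaemias. Of 23 list genes with a promoter entry, 13 (56.5%) held GAAA, 2 bases of any kind and a second GAAA, the core of the interferon-stimulated response element, on either strand within 250 bases before the start, against 3.46% of all genes with an entry and 3.46% of the tested ones. The 160 bases before the start are shown for 3 that rose, with the matching stretch in capitals, since this element is what the ISGF3 complex, which contains Irf9, recognises. Isg15 lies at chr4:156200819-156200978 (minus strand) with overlapping matches starting 78, 72 and 66 bases before the start, Igtp at chr11:58199396-58199555 (plus strand) with the match at 34 bases and Rsad2, chosen after its values were seen, at chr12:26456453-26456612 (minus strand) with the match on the opposite strand at 120 bases.
Isg15: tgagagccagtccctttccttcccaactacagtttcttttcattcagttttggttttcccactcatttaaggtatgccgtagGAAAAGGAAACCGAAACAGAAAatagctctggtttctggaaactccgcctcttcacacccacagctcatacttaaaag
Igtp: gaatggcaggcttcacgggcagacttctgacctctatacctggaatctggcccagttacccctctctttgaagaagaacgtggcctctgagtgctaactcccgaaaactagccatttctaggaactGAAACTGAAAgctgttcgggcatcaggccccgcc
Rsad2: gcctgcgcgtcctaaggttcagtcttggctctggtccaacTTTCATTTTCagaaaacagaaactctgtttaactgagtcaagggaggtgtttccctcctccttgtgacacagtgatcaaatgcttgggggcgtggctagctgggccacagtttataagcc
No binding was measured at these letters.

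Irf9, the DNA-binding subunit of ISGF3, was at 2172, 3458, 3322 and 3224 in the leukaemias, against 279, 279, 326 and 341 in the reference (log2 difference 3.29 ± 0.19 SE, adjusted p = 9.37e-06). Isg15, a ubiquitin-like modifier, was at 692, 1464, 974 and 2596 against 37.8, 26.0, 11.9 and 57.6 (log2 difference 5.41 ± 0.54 SE, adjusted p = 0.000108), and Igtp, a GTPase of cell-autonomous defence, at 1641, 4164, 3964 and 3638 against 369, 429, 369 and 435 (log2 difference 2.98 ± 0.28 SE, adjusted p = 8.84e-05). Rtp4 was at 1722, 7793, 6203 and 2245 against 85.0 to 119 (log2 difference 5.17 ± 0.46 SE, adjusted p = 5.92e-05), and Rsad2, the antiviral enzyme viperin, at 1473, 477, 319 and 5848 against 0 to 7.00 (log2 difference 7.98 ± 0.98 SE, adjusted p = 0.000308). Every leukaemia exceeded every reference library in these 5 genes, and recipient 1308 was the highest in Isg15 and Rsad2 but not in Irf9, Igtp and Rtp4. Gbp7 was above the reference in recipient 1302, within it in 1301 and below it in the others, at 1734, 5945, 13972 and 1746 against 5819 to 5995 (adjusted p = 0.486, and adjusted p = 0.0431 without recipient 1302). Ifit2 was at 974, 1051, 1507 and 935 against 1020.1 to 1371 (adjusted p = 0.672).

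Antigen presentation through MHC class I, present on nearly all cells, rose in 11 of 12 tested genes and fell in 0 (median log2 difference 1.73). The share higher was 91.7%, beside 20.8% of all tested genes. Among the 12, 1 passed the filter only through the leukaemias. H2-K1 was at 47612, 43567, 42303 and 86718 against 9482, 9593, 9624 and 10941 (log2 difference 2.41 ± 0.22 SE, adjusted p = 7.27e-05), B2m, the common light chain, at 158778, 156841, 135437 and 289566 against 50049 to 64433 (log2 difference 1.71 ± 0.23 SE, adjusted p = 0.000456) and Psmb9, an immunoproteasome subunit, at 11252, 18837, 9995 and 24917 against 2524 to 3165 (log2 difference 2.46 ± 0.27 SE, adjusted p = 0.000183). Classical H2 genes are close copies of one another, and the division of reads among them is uncertain. MHC class II genes rose in 8 of 11 tested members (72.7%, beside 20.8% of all tested genes) and fell in 0 (median log2 difference 4.03). H2-Aa, a class II alpha chain, was at 617, 573, 1499 and 85258 against 30.2, 32.0, 27.7 and 49.0 (log2 difference 6.22 ± 1.43 SE, adjusted p = 0.00845), and H2-DMb1, of the peptide-loading chaperone, at 249.8, 388, 600.4 and 8345 against 0 to 11.0 (log2 difference 7.73 ± 1.15 SE, adjusted p = 0.000811). All 4 leukaemias exceeded the reference in both, and recipient 1308 exceeded the other leukaemias many times over. Cd74, the invariant chain, was within the reference range in recipient 1300 and highest in 1308, at 1589.6, 3171, 13139.9 and 207276 against 1463 to 1847 (adjusted p = 0.12, and adjusted p = 0.0367 without recipient 1300). Plasmacytoid dendritic and macrophage markers were also highest in recipient 1308, and their part in these levels was not tested.

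Homing and adhesion genes rose in 5 of 18 tested members and fell in 2, 2 passing the filter only through the leukaemias. That was 27.8% up and 11.1% down, beside 20.8% and 19.8% of all tested genes. For the homing genes this became 3 higher without WT 1, WT 2, WT 3 or WT 4 and 4 lower without recipient 1308. Itgal, the LFA-1 integrin chain, was at 1607, 1672, 3319.7 and 3779 against 328 to 649.5 (log2 difference 2.24 ± 0.34 SE, adjusted p = 0.000852). S1pr1, the receptor for exit into blood, fell to 283, 165, 81.9 and 183 from 431 to 524 (log2 difference -1.56 ± 0.35 SE, adjusted p = 0.00663). Vcam1, an adhesion ligand of stromal cells and macrophages, was at 1473, 2211, 2072 and 7132 against 6.00 to 9.89 (log2 difference 8.21 ± 0.48 SE, adjusted p = 9.66e-06). Of the glucocorticoid receptor and energy genes 4 of 10 rose (40%) and 4 fell (40%), beside 20.8% and 19.8% of all tested genes. For the glucocorticoid and energy genes this became 2 lower without WT 3. The median log2 difference of the list was -0.0005, and the genes given next are all from those that rose. Tsc22d3, a glucocorticoid-induced leucine zipper gene, rose to 5605, 10379, 16636 and 6839 from 2138 to 2271 (log2 difference 2.04 ± 0.30 SE, adjusted p = 0.000679), Nr3c1, the receptor itself, to 5169.7, 3054, 3603 and 4814 from 1788 to 2433 (log2 difference 0.88 ± 0.20 SE, adjusted p = 0.00636) and Txnip, a restrainer of glucose uptake, to 6657, 2705, 4714 and 9989 from 1834 to 2067 (log2 difference 1.48 ± 0.34 SE, adjusted p = 0.00706).

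Globin transcripts were abundant in the leukaemias and differed widely between them. Of the 7 listed globin genes 4 were tested, 3 of them passing the filter only through the leukaemias. The summed globin level was 399290.0, 38103, 31796 and 1041390.0 in the leukaemias and 84.0 to 171 in Pax5 WT, and made up 1.22, 0.105, 0.0981 and 2.79% of the leukaemia reads. Hbb-bs, an adult beta globin, was at 242008, 24039, 18622 and 562909 against 0, 0, 0 and 0.860, and Hba-a1, an adult alpha globin, was at 41907, 3737, 4611 and 145206 with no read in Pax5 WT, at least 17172-fold higher. Hbb-bt was at 78665, 7559.6, 5453 and 191096 against 88.8, 152, 69.2 and 157 (log2 difference 7.98 ± 1.07 SE, adjusted p = 0.000608). Every leukaemia was above the reference, 1308 and 1300 by the most. Hbb-bs with Hbb-bt, and Hba-a1 with Hba-a2, are near-identical pairs, and how reads were divided within a pair is uncertain. The embryonic globin Hbb-bh1 went the other way at low counts, with no read in the leukaemias and 16.1, 6.00, 14.8 and 12.9 in Pax5 WT.

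In their sum, erythroid genes outside the globins were also highest in recipients 1308 and 1300. The table held 19 listed genes, of which 13 were tested, 6 of them only through the leukaemias, and 8 had no read in any Pax5 WT library. The summed level was 55605, 17312, 5308 and 69987 against 5460.4 to 6290.2, with recipient 1302 below every Pax5 WT library. Car2, given below, held 14767 of the sum in recipient 1301 and 4579 to 5434 of the Pax5 WT sums. Alas2, the erythroid enzyme that begins haem synthesis, was at 5421, 635, 689.7 and 21074 against 1.89, 0, 0 and 0 (log2 difference 11.00 ± 1.07 SE, adjusted p = 9.96e-05). Its promoter entry at chrX:150547257-150547416 (plus strand) is shown with AGATAA, a site of GATA factors, in capitals on the opposite strand 86 bases before the start, because 5 of 12 matched erythroid genes (41.7%) held these letters on either strand, against 11.4% of all genes with an entry and 7.19% of the tested ones.
Alas2: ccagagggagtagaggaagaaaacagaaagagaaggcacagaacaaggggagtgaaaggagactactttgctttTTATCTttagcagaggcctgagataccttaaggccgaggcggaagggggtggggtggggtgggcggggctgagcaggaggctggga
Slc4a1, the band 3 anion exchanger of the red cell membrane, was at 3948, 99.7, 186 and 4117, with no read in Pax5 WT. Recipients 1300 and 1308 were high and 1301 and 1302 low. Sptb, which encodes a spectrin of the membrane skeleton, was at 522, 0, 33.5 and 347, without a read in recipient 1301. Klf1, the erythroid master regulator, was at 613, 2.46, 16.1 and 361 against 1.89, 10.0, 19.8 and 22.4, which puts recipients 1301 and 1302 within the reference range (adjusted p = 0.249, and adjusted p = 0.0483 without recipient 1301). Car2, also expressed by B precursors here, was at 23153, 14767, 2522 and 14056 against 4579 to 5434 (adjusted p = 0.159, and adjusted p = 0.000289 without recipient 1302), and Bpgm at 3796, 618, 614 and 11596 against 369 to 431 (adjusted p = 0.0614, and adjusted p = 0.026 without recipient 1301 and 0.0215 without recipient 1302).

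Genes of primary granules and early myeloid cells were mostly highest in the same pair of mice. Of 10 listed genes 3 were tested and 4 had no read in Pax5 WT. The summed level was 6103, 6669, 643 and 11142 against 949 to 1090.5. Elane, neutrophil elastase, was at 1081, 12.3, 7.44 and 2159 with no read in Pax5 WT, and Mpo, myeloperoxidase, at 1054, 18.5, 9.92 and 2357 against 0, 4.00, 0.989 and 0. Ms4a3, of granulocyte-monocyte progenitors, and Cebpe, the factor of granule maturation, were at 398, 0, 0 and 761 and at 108, 0, 0 and 169, with no read in recipients 1301 and 1302. Ctsg, which encodes the granule protease cathepsin G, broke this order: it was at 494, 5652, 0 and 1061 against 0, 2.00, 0 and 0, highest in recipient 1301 and without a read in 1302. Prtn3, proteinase 3, rose to 344, 70.1, 44.7 and 1270.4 from 4.00 to 13.8 (log2 difference 4.19 ± 0.99 SE, adjusted p = 0.00834), and Gfi1, a repressor of granulocytes and lymphoid progenitors, fell to 280.0, 224, 232 and 44.3 from 509 to 738 (log2 difference -1.94 ± 0.53 SE, adjusted p = 0.016). Csf3r, the G-CSF receptor, was at 36.8, 0, 2.48 and 118 and Cebpa at 5.26, 28.3, 47.1 and 195.

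Granulocyte and monocyte genes of later stages also differed widely between the mice. Of 21 listed genes 17 were tested, 9 of them only through the leukaemias, and 8 had no read in Pax5 WT. The summed level was 199268, 17402, 11973 and 353657 against 639.7 to 976. S100a8, a calprotectin subunit that fills the neutrophil cytoplasm, was at 67554, 1190.0, 86.8 and 77275 with no read in Pax5 WT (at least 12836-fold higher), and its partner S100a9 at 44004, 812, 64.5 and 45110.1, also with none. Recipient 1302 was the lowest leukaemia in both. The granule genes Camp and Ngp were at 12484, 206, 4.96 and 10778 and at 16369, 230.1, 55.8 and 21835, and Retnlg, a mature neutrophil transcript, at 2807, 2.46, 4.96 and 2117. Ly6g, the neutrophil surface antigen, was at 268, 7.38, 0 and 268, so recipient 1302 had no read of it. Genes shared with monocytes followed another order. Fcgr3, an Fc receptor, was at 706, 603, 2186 and 2556 against 2.84, 0, 0 and 0 (log2 difference 9.79 ± 0.68 SE, adjusted p = 1.87e-05), and Ccr2, the chemokine receptor of inflammatory monocytes, at 349.7, 2872, 2017 and 8343 against 5.93 to 26.5 (log2 difference 6.98 ± 0.88 SE, adjusted p = 0.000395), which was lowest in recipient 1300. Itgam, the CD11b antigen, was at 85.5, 19.7, 64.5 and 1301 against 26.7 to 47.3 and did not pass (adjusted p = 0.287).

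Macrophage transcripts were present in all 4 leukaemias. Of 16 listed genes 13 were tested, 9 of them only through the leukaemias, and 11 had no read in Pax5 WT. The summed level was 8277, 11772, 9186 and 59565 against 117 to 147. C1qb and C1qc, complement subunits made by tissue macrophages, were at 881, 1446, 918 and 7062 and at 844, 1124, 820.0 and 5579.8, with no read of either in Pax5 WT. Spic, the factor of red pulp and iron-recycling macrophages, was at 187, 454, 439 and 2169.9, Cd5l at 149.9, 293, 231 and 2912 and Adgre1, the F4/80 antigen, at 98.6, 175, 124 and 1382, again with none in Pax5 WT. In these 5 genes recipient 1308 was the highest, and recipient 1300 was the lowest in C1qb, Spic, Cd5l and Adgre1, unlike its place among granulocyte genes. Marco was at 0, 0, 9.92 and 199 and Vsig4 at 0, 36.9, 9.92 and 177, both without a read in recipient 1300.

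**Figure D4:**
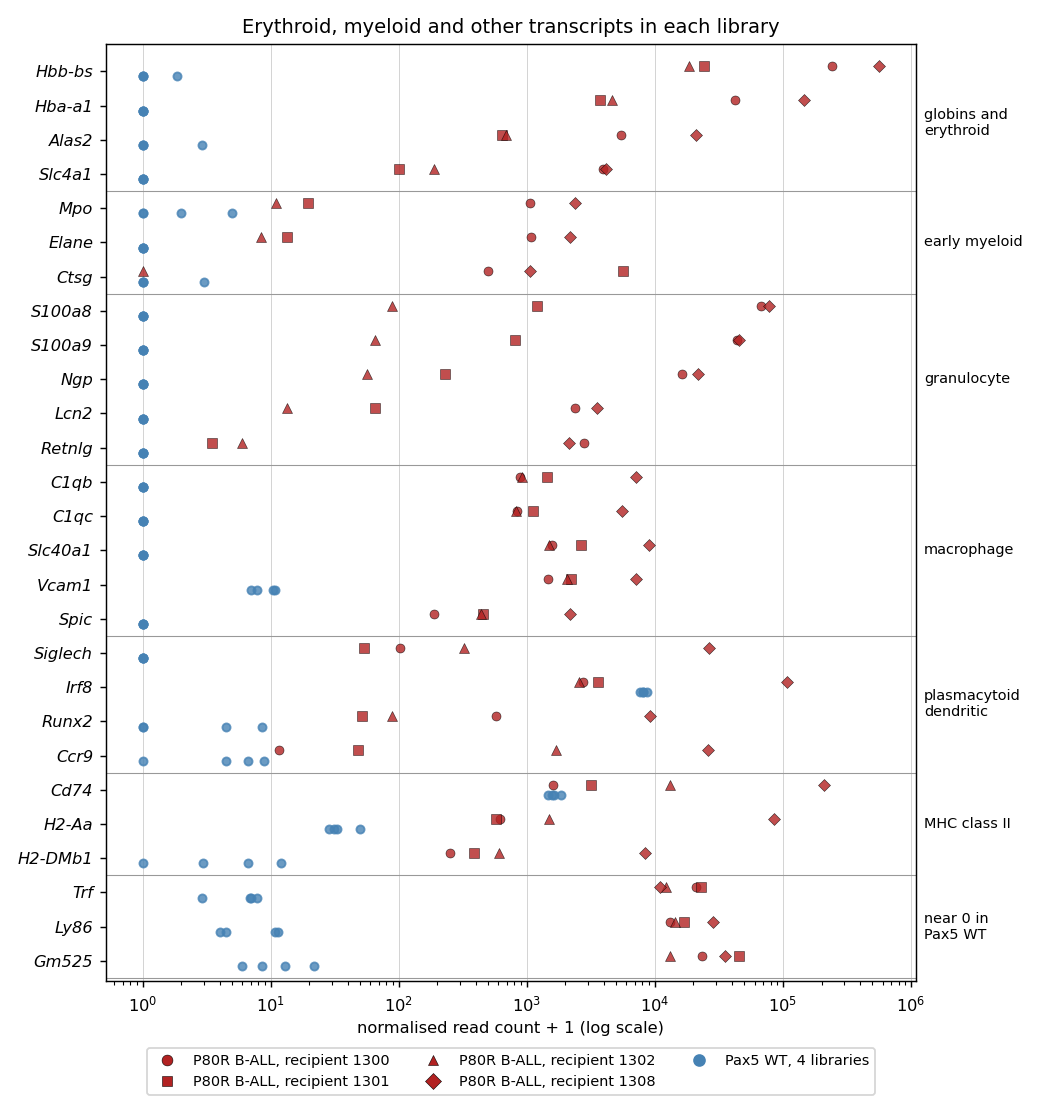
Normalised read count plus 1 (x axis, log scale) of erythroid, myeloid, macrophage, dendritic and MHC class II genes and 3 genes near 0 in Pax5 WT (rows), 1 point per library, with a red symbol for each leukaemia and blue circles for Pax5 WT. Recipients 1300 and 1308 lie to the right of 1301 and 1302 in red cell and granulocyte genes such as Slc4a1 and S100a8, while C1qb is at 881 or more in all 4 leukaemias.

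Further blood lineages are described by the sums of their marker lists, which a single gene can dominate. Megakaryocyte and platelet genes summed to 2405, 176, 72.0 and 9846 against 6.00 to 8.51. Pf4, platelet factor 4, was at 1139, 39.4, 12.4 and 3342 against 1.89, 0, 0 and 3.44 (log2 difference 6.81 ± 1.65 SE, adjusted p = 0.01), again highest in 1308 and 1300. Mast cell and basophil genes summed to 906, 1637, 0 and 977 in the leukaemias, with none tested and all 8 at 0 in every Pax5 WT library. T-lineage genes summed to 8362, 14839.9, 6871 and 12633 against 567 to 711, and the larger part of each leukaemia sum was Lck. Lck, a kinase that B-lineage leukaemias can also express, was at 7049, 13799, 5002 and 6363 against 363 to 492 (log2 difference 4.11 ± 0.28 SE, adjusted p = 1.82e-05), Cd3d at 114, 82.5, 146 and 745 against 0 to 2.58 (log2 difference 6.39 ± 0.78 SE, adjusted p = 0.000302) and Cd4 at 169.6, 124, 130.3 and 1456 with no read in Pax5 WT. NK and innate lymphoid genes summed to 10992, 5144, 11249 and 35312 against 671 to 981. Il18r1, an interleukin-18 receptor chain, was at 1402, 379, 164 and 962 with no read in Pax5 WT, at least 255-fold higher.

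Plasmacytoid dendritic genes set recipient 1308 apart. Their sum was 21444, 54612, 38883 and 377010.0 against 27735 to 29169, so the other 3 leukaemias lay below, above and above the reference in the order of recipients 1300, 1301 and 1302. Ly6d, given below, held 38379 of the sum in recipient 1301 and 17834 of that in 1302. In both it exceeded the margin over the reference, so their place above it rested on this gene. Siglech, a receptor of these cells, was at 101, 52.9, 325 and 26551 with no read in Pax5 WT, at least 2375-fold higher. Runx2 was at 576, 50.5, 86.8 and 9134 against 0 to 7.56 (log2 difference 7.31 ± 1.55 SE, adjusted p = 0.00534), and Ccr9, a gut-homing chemokine receptor, at 10.5, 46.8, 1677 and 25992 against 0 to 7.91 (log2 difference 6.61 ± 2.18 SE, adjusted p = 0.0384; adjusted p between 0.0713 and 0.107 with WT 1, WT 2, WT 3, WT 4 and recipient 1302 left out in turn). Ly6d, an antigen of B-biased lymphoid progenitors, was at 413, 38379, 17834 and 105192 against 3501 to 4343, with recipient 1300 below the reference and the other 3 above it (adjusted p = 0.351, and adjusted p = 0.00128 without recipient 1300). Irf8, described above, had its highest value in the same recipient as Siglech.

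Of the non-blood marker lists, more endothelial and stromal genes reached 10 normalised reads in each leukaemia than in any Pax5 WT library. Of the 9 hepatocyte genes 6 had no read in any leukaemia and 6 none in Pax5 WT, and the summed level, 20872, 22942, 12130.1 and 11038 against 25.8 to 42.5, came almost wholly from Trf, given above. Apoa2 was at 11.8, 29.5, 6.20 and 27.7 against 18.9 to 40.6 (adjusted p = 0.464). Endothelial genes summed to 12632, 10949.9, 10427 and 8408 against 3393 to 3631, and 7, 8, 6 and 8 of the 8 were at 10 or more in the leukaemias against 3 to 4 in Pax5 WT. Of 6 tested, 5 were called higher (83.3%, beside 20.8% of all tested genes). Among the 6, 2 had passed the filter only through the leukaemias. Emcn, the endomucin of venous endothelium, was at 96.0, 98.4, 11.2 and 58.1 with no read in Pax5 WT, while Pecam1, which leukocytes also express, was at 2807, 1725, 2997 and 5087 against 2202 to 2645 (adjusted p = 0.48). Stromal genes summed to 7277, 12065, 20271 and 41123 against 13579 to 16114, and 8, 8, 7 and 9 of the 9 were at 10 or more against 1 in each Pax5 WT library. Of 7 tested, 6 were called higher (85.7%, beside 20.8% of all tested genes). However, 6 had passed the filter only through the leukaemias and so were bound to differ. Col1a1, a collagen chain of mesenchymal cells, was at 383, 571, 251 and 1417 against 1.89, 0, 0 and 0 (log2 difference 8.66 ± 0.67 SE, adjusted p = 2.99e-05), and Vim, widely expressed in leukocytes, at 4423, 8251, 19059.8 and 20027 against 13575 to 16104 (adjusted p = 0.479). The part that cells of these lineages, or RNA from them, had in the higher genes was not tested.

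**Figure D5:**
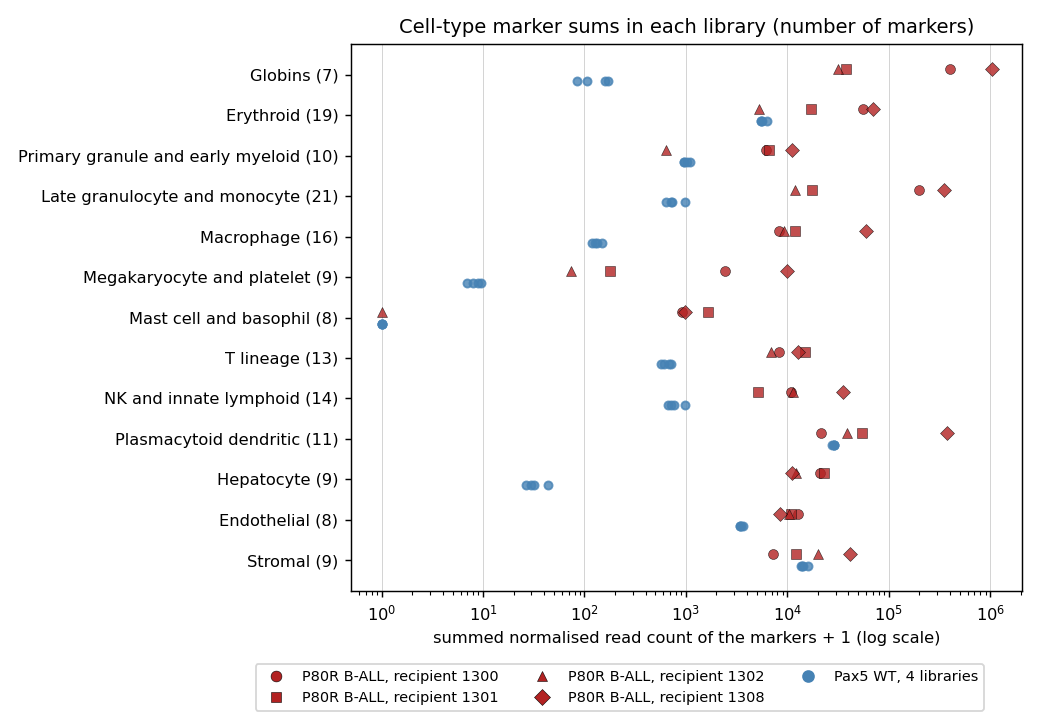
Sum of the normalised read counts of each cell type marker list plus 1 (x axis, log scale; rows are lists with their number of markers), 1 point per library, with a red symbol for each leukaemia and blue circles for Pax5 WT. The globin sums were 399290.0, 38103, 31796 and 1041390.0 in recipients 1300, 1301, 1302 and 1308, and the macrophage sums 8277, 11772, 9186 and 59565.

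The widest ranges over the 4 leukaemias in the whole table belonged to genes that were high in 1 or a few mice and absent from others. Cdh17, a cadherin of intestine and of some B cells, was at 9627, 0, 14583 and 20014 against 49.1, 44.0, 69.2 and 45.6, without a read in recipient 1301 and at 9627 or more in the other 3 (adjusted p = 0.224, and adjusted p = 1.07e-05 without recipient 1301). Ly6k was at 2.63, 9.84, 0 and 16892, almost wholly in recipient 1308, and Serpinb9d, a serpin of the granzyme-inhibitor family, at 0, 972, 23.6 and 6289.7, both with no read in Pax5 WT. Il5ra, the interleukin-5 receptor of eosinophils and B-1 cells, was at 0, 44.3, 16.1 and 4074 against 311 to 534, below the reference in 3 leukaemias and above it in 1308 (adjusted p = 0.246, and adjusted p = 0.00551 without recipient 1308). Gsdmc4, of the gasdermin family, was at 0, 3927, 0 and 0, so recipient 1301 alone had reads. Foxf1, a mesenchymal transcription factor, was at 3567, 22.2, 0 and 40.1, and Tnfsf4, which encodes OX40 ligand, at 3053, 0, 0 and 0 against 12.9 to 32.6 (adjusted p = 0.693, and adjusted p = 0.00194 without recipient 1300), both highest in recipient 1300. These private levels fell in recipients 1300, 1301 and 1308 and, for Gm8369 at 0, 315, 2819.8 and 109, in 1302.

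At the other extreme were called genes with the same value in every leukaemia, which here was 0. Ccdc42 had no read in any leukaemia and 289, 465, 416 and 458 in Pax5 WT, at least 105-fold lower. Ppargc1a, the coactivator PGC-1alpha of mitochondrial biogenesis, had none against 51.0, 57.0, 46.5 and 42.1, and Peg3, an imprinted gene, none against 62.4, 69.0, 19.8 and 10.3. Of the tested genes 25 had no read in any leukaemia, and 201 had none in any Pax5 WT library. At the depth of these libraries an empty count shows that a transcript was below the floor of 3 reads, not that it was absent.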

How the data were processed

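RNA was taken from sorted cells, and full-length SMART-Seq v4 libraries, which do not mark strand, were made, per the labels' protocols. The submitters' processing notes name fastp, STAR 2.7.8a, featureCounts and the build mm39. Which annotation and strand setting were used, and how reads matching several genes were counted, has no statement in these sources, so overlapping and antisense genes cannot be told apart. The deposited signal values are read counts divided by the authors by 1 factor per library. All values (100%, tolerance 0.001) were whole multiples of a library's step, so whole reads were recovered for depths and for the count tests. Of 21885 genes, 21780 matched a symbol in GENCODE names of an older build.

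Log2(value + 1) was fitted with limma 3.58.1 (trend and robust, R 4.3.3) to the 8 libraries for genes at 10 or more in at least 4, with Benjamini-Hochberg adjustment over all 11615. The unit differed from the counts first planned for, so edgeR 4.0.16 became an alternative (4608 genes called), as did DESeq2 1.42.0. Fold changes on this scale understate low genes. A group without reads was set to a floor of 3 reads per library, which covers counting error only. The fit was also run on simulated counts, drawn with the same relative spread for every gene of a group. They held no genes raised in single mice, and no result here rests on them. Alternatives changed the pseudocount, filter, scaling, test, weights, libraries fitted and each replicate.

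Members and lists were chosen with earlier results of these data known. Genes named were Pax5, Ebf1, Flt3 and Epas1; the 15 largest differences per direction without overlap and with a mean of at least 200 in the higher group; up to 4 called and 3 uncalled members per list (by smallest adjusted p and by highest mean); the widest-ranging members of 5 lineage lists (up to 8 each); the 12 widest-ranging genes; and the 12 most even called ones over the leukaemias. Not all genes eligible in this way are printed. Promoters are RefSeq entries on GRCm38.p6, used for sequence only, and motifs were chosen with results known. Results for the Pax5-/- libraries are not reported here.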

Additional observations from a re-analysis of the deposited data

Results flagged for a closer look

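In the genes named above, 70 values in 1 library lay far from the other 3 libraries of their group, the gap to the nearest, as a share of the group's whole range, being above Dixon's 95% critical value for 4 values. Of 362 groups of values that were not all equal, chance alone flags about 1 in 20, and genes named for their wide range were bound to add some.

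Recipient 1308 held 32 of the 45 such values among the leukaemias, all of them above the other 3. Normalised read counts there were Adgre1 (1382), Alpl (202), B2m (289566), C1qb (7062), C1qc (5579.8), Ccr9 (25992), Cd3d (745), Cd4 (1456), Cd5l (2912), Cd74 (207276) and Cxcl12 (17578). The same held for Egr1 (363), Fabp4 (3939.9), Fth1 (228592), H2-Aa (85258), H2-DMb1 (8345), H2-K1 (86718), Hmox1 (8404), Il2rb (978), Il5ra (4074), Irf8 (106755) and Itgam (1301). The remaining values were Lin28b (13.8), Ly6k (16892), Marco (199), Pmaip1 (2479), Runx2 (9134), Serpinb9d (6289.7), Siglech (26551), Slc40a1 (8933), Spic (2169.9) and Vcam1 (7132). Macrophage, MHC class II and plasmacytoid dendritic genes make up much of this set.

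Recipient 1302 stood above the other leukaemias in Crhbp (218), Gm8369 (2819.8), Igf2bp3 (4117), Plcg2 (16520.4) and Tcf3 (5409) and below them in Rps27 (25187). Recipient 1301 was above them in Gsdmc4 (3927) and Pcna (25238) and below in Gldc (0) and Mef2c (8697). Recipient 1300 was high in Foxf1 (3567) and Tnfsf4 (3053) and low in Ccnd2 (8286).

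Among the Pax5 WT libraries, WT 4 held 15 of 25 such values. It was above the other 3 in B2m (64433), Car2 (5434), Gm8369 (553), H2-K1 (10941) and Ube2c (21560.2), and below them in Ccnd3 (24065), E2f2 (6457), Kit (3656), Notch1 (345), Nras (5667), Prkcb (12277), Ptprc (4831), Slc2a3 (386) and Spib (6981). A value of at most 4.00 beside 3 empty libraries was found for Alas2 (1.89), Col1a1 (1.89) and Fcgr3 (2.84) in WT 1, Cebpa (1.00), Ctsg (2.00), Cxcl12 (4.00) and Ly6g (1.00) in WT 2 and Hbb-bs (0.860) in WT 4. WT 1 was high in Dnmt3b (1130.3) and WT 3 high in Tnfsf4 (32.6) and Zmat3 (392). No sign of unequal handling is given in the labels, and the cause was not tested.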

How the results depend on the processing

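The counts of higher and lower genes stayed within 1.5 times the values given (2416 and 2300) under each of the 13 kinds of alternative. They were 2410 and 2295 with a pseudocount of 0.5, 2403 and 2307 with 8, 2881 and 2276 with no filter on low values, 1945 and 2211 with at least 50 in at least 4 libraries, 2339 and 2404 with TMM scaling and 2517 and 2111 with upper-quartile scaling. The quasi-likelihood test of edgeR on recovered reads gave 2595 and 2013, DESeq2 2972 and 2177 (201 genes had no adjusted p), a weight per group 2228 and 2231, neither trend nor robust moderation 2337 and 2086 and the fit to all 12 libraries 2990 and 2981. Leaving out 1 library at a time gave 1841 to 2606 higher and 1544 to 2608 lower genes. No called gene named in the text changed sign under any alternative. With all libraries kept, Erg and Igf2bp3 lost their call with edgeR, and Braf, Nras, Igf2bp2 and Ddx3y with a weight per group. Vhl, Ccr9 and Ddx3y lost it with neither trend nor robust. Braf and Ddx3y lost it with no filter, Ccr9 with a pseudocount of 8 and Ddx3y with TMM scaling. Calls were gained by 13 genes with DESeq2, 9 with edgeR and 7 with all 12 libraries. A weight per group added 6 and upper-quartile scaling 2. Dntt and Fth1 gained one with edgeR and DESeq2. List counts that moved by over 1.5 times and at least 2 genes when no library was left out were these. Surface antigens had 7 higher (edgeR and DESeq2) for 4, and 3 lower (edgeR) or 2 (neither trend nor robust) for 5. Stem regulators had 6 higher for 3 (edgeR and DESeq2), RAS genes 2 for 0 and immediate-early genes 3 for 1 (DESeq2). Iron genes had 5 higher for 3 (edgeR, weight per group, all 12 libraries), or 5 for 2 among those with a DESeq2 adjusted p. Oxidative phosphorylation had 5 higher for 3 (DESeq2), and 6 for 3 with 3 lower for 1 (all 12 libraries). Interleukin receptor genes had 4 lower for 1 (all 12 libraries), cyclin and CDK genes 2 higher for 0 (DESeq2, weight per group), the BCL2 family 2 higher for 5 (at least 50, fewer genes tested) and homing genes 3 higher for 5 (neither trend nor robust). The cause was not tested elsewhere. A median turned sign for the stem list (-0.29, from -0.36 to 0.61 over the alternatives), surface antigens (0.38, down to -0.31 without recipients 1300 and 1308), recombination (-0.42, 0.13 without both), iron (0.31, -0.10 without both), the BCL2 family (0.28, -0.30 at 50), and the interleukin receptor, immediate-early, HIF and glucocorticoid lists, whose medians lay near 0. Mitotic genes had 25 to 28 lower and interferon genes 21 to 25 higher over all alternatives. No paired analysis was possible because the 2 groups share no replicate numbers. Having 4 libraries a group and counts without molecular identifiers limits the precision, and floors cover counting error only.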

Other observations

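The genes in this section were chosen after their values were seen. The 2 adult beta globin genes divided their reads differently in the 2 groups. Hbb-bs made up 75.5%, 76.1%, 77.3% and 74.7% of the summed Hbb-bs and Hbb-bt values in the leukaemias, over sums of 24075 to 754005. In Pax5 WT it made up 0% in 3 libraries and 0.543% in WT 4, over sums of 69.2 to 158. The share was thus even over leukaemias whose globin level differed widely.

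Jchain, which encodes the joining chain of IgM and IgA, was at 5689, 229684, 2781 and 64147 in the leukaemias, against 138, 79.0, 106 and 175 in the reference (log2 difference 7.51 ± 1.25 SE, adjusted p = 0.00177). Recipient 1301 was the highest and 1308 next. Tmsb4x, the actin-binding thymosin beta-4 and the gene with the most reads in recipients 1301, 1302 and 1308, was at 297495, 367293, 255800.0 and 650291 against 64551, 68495, 68838 and 84796 (log2 difference 2.36 ± 0.26 SE, adjusted p = 0.000185). The Y-linked gene Ddx3y was at 4234, 3085, 3282 and 3255 against 2668, 2773, 2483 and 2472 (log2 difference 0.40 ± 0.14 SE, adjusted p = 0.0414; adjusted p between 0.0751 and 0.118 with WT 1, WT 2, WT 3, WT 4 and recipient 1300 left out in turn), so all 8 libraries held reads from male cells.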
